A study of Mus musculus with 8 samples.

Results

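Proteasome genes were followed in RNA sequenced from sorted mouse LSK cells, the lineage-negative, Sca-1 positive and c-Kit positive bone marrow fraction that holds blood stem cells and early progenitors. Members were taken by name: Psma, Psmb, Psmc, Psmd, Psme, Psmf or Psmg followed by a digit, with 4 pseudogene names left out. This gave 50 of the 54532 genes in the table, and 49 of them had enough reads to be tested. Psmc3ip matched the name rule but encodes a meiotic recombination factor and no proteasome subunit, so it is described apart from the other 49. There were 3 libraries from AML1/ETO mice (genotype Runx1-Runx1t1, the fusion made by the t(8;21) translocation of acute myeloid leukaemia) and 5 from control mice (genotype WT), all of strain C57BL/6. Mice of both genotypes received 4 injections of poly(I:C), a synthetic double-stranded RNA that induces interferon, at 5 mg/kg on alternate days, and LSK cells were sorted 4 weeks after. The age and sex of the mice and the promoter or recombinase behind the fusion allele are not stated in the labels. Nor do they say whether each replicate came from its own animal. A p-value here sets the group difference against the spread of these samples, which may not be the spread between animals.

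The proteasome degrades proteins tagged with ubiquitin. Its core particle is a barrel of outer alpha rings, which gate the entrance, and inner beta rings, which carry the proteolytic sites on Psmb5, Psmb6 and Psmb7. A regulatory particle caps the barrel: its base holds a ring of ATPases that unfold substrates and its lid removes ubiquitin. Interferon-inducible subunits, Psmb8, Psmb9 and Psmb10, can replace the catalytic ones to form the immunoproteasome, which is common in blood cells and supplies peptides for MHC class I.

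Library totals were 14693080 to 16433454 reads in AML1/ETO and 16374232 to 17527043 reads in control samples. Proteasome genes took 36033 to 49115 reads of an AML1/ETO library and 73004 to 92246 reads of a control. Runx1t1, which carries the ETO part of the fusion, stood at 53.9, 123 and 105 CPM in the AML1/ETO libraries and at 2.4, 1.58, 5.55, 7.68 and 1.66 CPM in the controls, where CPM is reads per 1000000 of the scaled library. The marker counts that follow are read against 11.6% of all tested genes that rose and 14.2% that fell. Of 8 LSK markers 7 rose, among them Kit (adjusted p = 6.23e-05, log2 fold change 1.69 with SE 0.18), and none fell. Ly6a, the Sca-1 gene, averaged 465.8 CPM in the AML1/ETO libraries but only 14.99 CPM in the controls. Mast cell markers stood apart too: 5 of 6 tested rose, and the 8 listed summed to 2495 to 6796 CPM in the AML1/ETO libraries, against 28.4 to 79.7 CPM in the controls, where Cma1, Mcpt4 and Tpsb2 had no read. Most of the AML1/ETO sums was Cpa3, at 1771 to 6135 CPM. Lineage markers of mature cells were mostly lower: 4 of 5 macrophage and monocyte genes fell (35.1 to 52.1 CPM summed in AML1/ETO, 152 to 320.5 CPM in control), 3 of 6 neutrophil genes (0 to 61.4 CPM in AML1/ETO, 118 to 283 CPM in control) and 3 of 4 tested dendritic cell genes (78.2 to 163 CPM in AML1/ETO, 169 to 287 CPM in control), with Itgax and Siglech at 0 in AML1/ETO. T and NK cell markers, of which 3 of 3 tested fell, summed to 2.27 to 7.59 CPM in AML1/ETO and 62.7 to 118 CPM in control, with Cd3e and Cd3g at 0 throughout. Nkg7 alone made up the AML1/ETO sums and held 60.9 to 114 CPM in the controls, where Klrd1 and Il2rb averaged 1.84 and 2.51 CPM. B cell markers, of which 3 of 5 tested fell, summed to 5.30 to 10.8 CPM in AML1/ETO and 6.46 to 52.6 CPM in control. Ms4a1 was at 0 throughout. Cd79a, Ebf1 and Pax5 were at 0 in AML1/ETO and averaged only 5.84, 4.05 and 3.38 CPM in the controls. Control 4 had no Cd79a read either. Erythroid markers, of which 1 of 4 tested rose and none fell, summed to 6.66 to 71.1 CPM in AML1/ETO and 2.98 to 30.6 CPM in control. The one that rose, Hbb-bt, held 2.73 to 61.5 CPM in AML1/ETO and 0 to 0.117 CPM in control. Xist, which coats the inactive X, held 28559 to 33151 reads per AML1/ETO library, against 0 to 111 reads per control, so genotype and this marker of sex cannot be told apart. The part of these differences in the results on the proteasome was not tested. In bulk RNA, fewer cells of a type and less RNA per cell cannot be told apart.

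Most proteasome genes were lower in AML1/ETO than in control LSK cells, with a negative log2 fold change in 46 of 48 without Psmc3ip. Of 49 tested members 25 fell and 0 rose (quasi-likelihood test of edgeR, p adjusted by Benjamini-Hochberg over 15009 genes and under 0.05), which is read against 14.2% of all tested genes that fell and 11.6% that rose. Members were abundant: 43 had a mean of 20 CPM or more, and all 25 falls were among these, where 20.3% of all genes fell and 18.6% rose. DESeq2 called 26 members lower and 0 higher, beside 2566 lower and 2135 higher of the 14943 genes it tested. The median log2 fold change was −0.65 over the members and −0.09 over all tested genes. In 28 members every AML1/ETO library lay below every control, and in 1 member above; among all tested genes this held for 17.5% and 14.1%.

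The fall was spread over the core and the regulatory particle. Reads of the 14 constitutive core genes summed to 750, 892 and 1032 CPM in the AML1/ETO libraries, against 1286, 1387, 1682, 1356 and 1529 CPM in the controls. The 17 regulatory particle genes summed to 1269, 1242 and 1365 CPM in the AML1/ETO libraries, against 1962, 2032, 2210, 1945 and 2005 CPM in the controls. These sums were 0.616 and 0.636 times the control mean, and the groups did not overlap in either. The 3 immunoproteasome genes summed to 189.8, 307.5 and 288 CPM in the AML1/ETO libraries, against 274, 257, 384, 291 and 356 CPM in the controls, and here the groups overlapped. AML1/ETO library 1 was the lowest of all 8 libraries in 26 of the 49 members with a read, library 2 in 10 and library 3 in 8. Without AML1/ETO library 1 the test called 21 members lower.

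**Figure D1:**
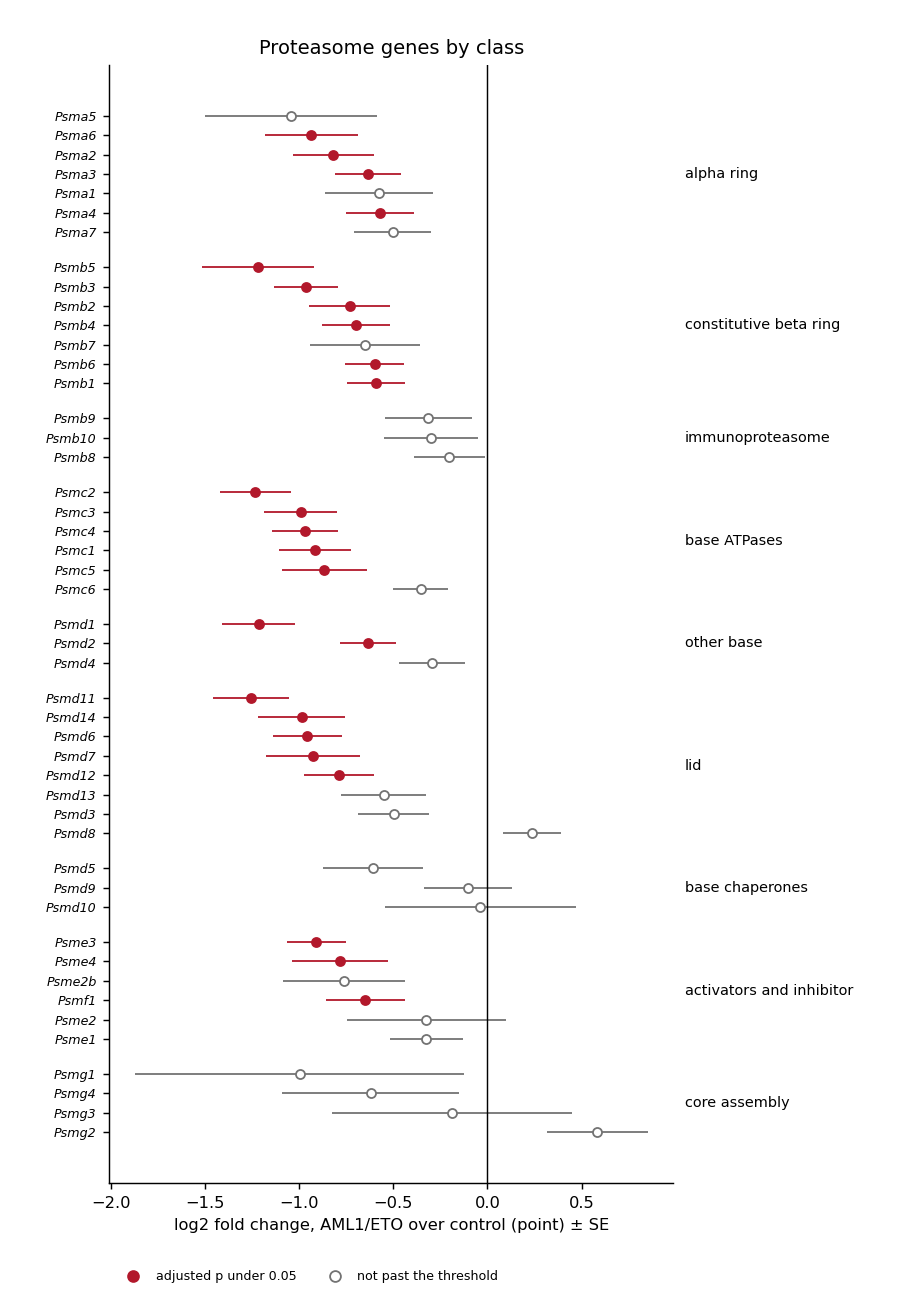
Log2 fold change of each tested proteasome gene other than Psma8 (x axis, AML1/ETO over control, point ± SE), grouped by class. Filled points passed the adjusted threshold: they fill most of the alpha, beta, base and lid classes, while the 3 immunoproteasome, 3 base chaperone and 4 core assembly genes have open points.

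**Figure D2:**
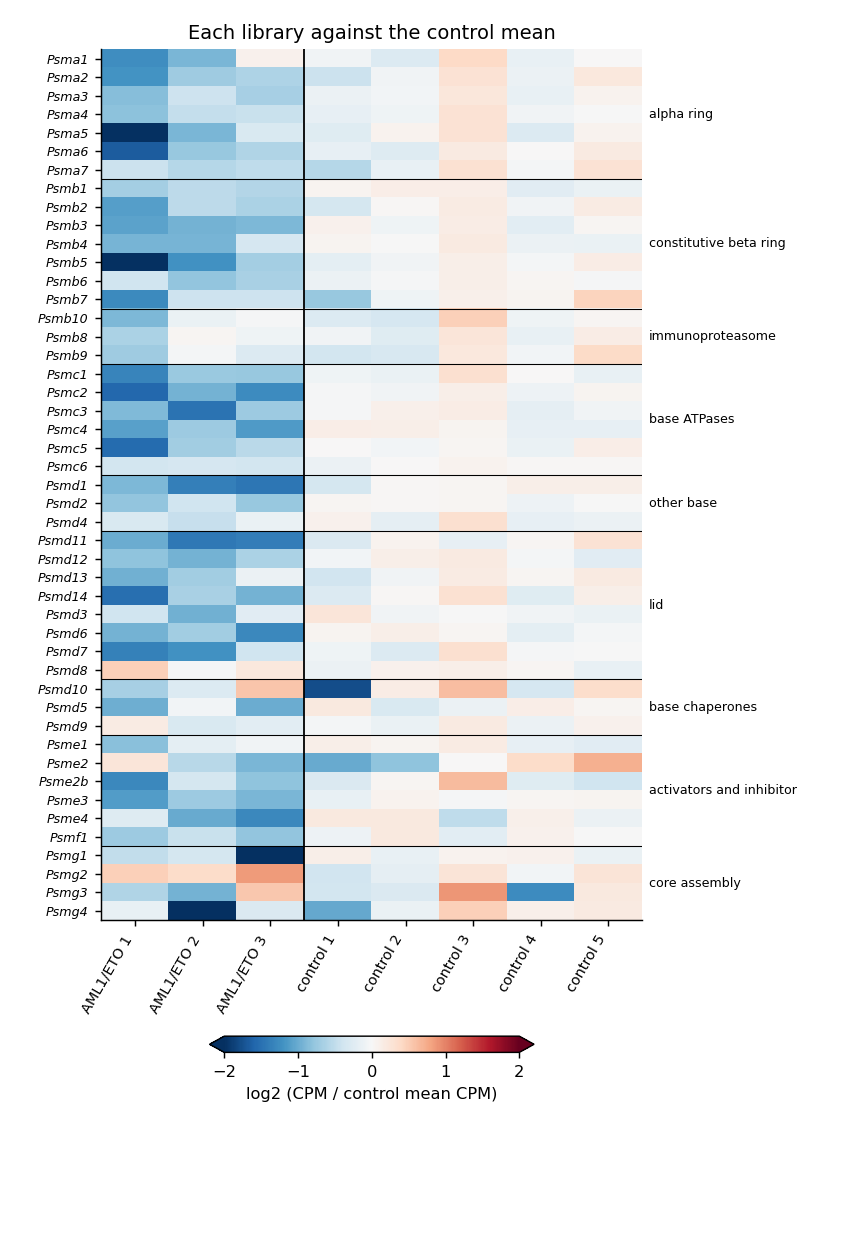
Level of each tested subunit, regulator or assembly gene other than Psma8 in each library, as log2 of CPM over the control mean (colour; blue is lower, the scale ends at 2 units either way). The 3 AML1/ETO columns are mostly blue across the core and regulatory particle rows, other than Psmd8, and paler in the immunoproteasome rows, and Psmg1 stands out in AML1/ETO library 3.

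In the alpha ring all 7 genes had negative log2 fold changes and 4 fell. Psma2 (ENSMUSG00000015671, chromosome 13, 14613240 to 14674236 in mm10) stood at 48.7, 68.2 and 72.3 CPM in the AML1/ETO libraries, against 82.9, 106, 136, 102 and 129 CPM in the controls. Psma6 stood at 31.6, 59.5 and 66 CPM in the AML1/ETO libraries, against 89.1, 83.5, 114, 101 and 114 CPM in the controls. In each of these genes, which encode subunits of the ring that gates the core, every AML1/ETO library was below every control, and the falls were 1.76-fold for Psma2 (adjusted p = 0.0147, log2 fold change −0.82 with SE 0.21) and 1.91-fold for Psma6 (adjusted p = 0.0152, log2 fold change −0.93 with SE 0.24). Psma3 had 52.4, 70.4 and 59.5 CPM in the AML1/ETO libraries, against 86.8, 90.5, 110.2, 85 and 99.1 CPM in the controls. Psma4 had 52.9, 66.9 and 68.9 CPM in the AML1/ETO libraries, against 83.3, 87.9, 114, 88.7 and 92.7 CPM in the controls. These groups did not overlap either, and both genes fell (adjusted p = 0.0207, log2 fold change −0.63 with SE 0.18 for Psma3; adjusted p = 0.0363, log2 fold change −0.57 with SE 0.18 for Psma4), but the calls were not firm to the choice of libraries. Leaving out AML1/ETO library 1 or 3, or control 3 or 5, lost the Psma3 call (adjusted p 0.0505, 0.0575, 0.0600 and 0.0529; all alternatives gave 0.00902 to 0.103). The Psma4 call held without control 1 and was lost without each of the other 7 libraries (adjusted p up to 0.100; alternatives gave 0.0144 to 0.123). With all libraries kept, it was also lost under limma-voom, DESeq2 size factors, upper-quartile scaling and no filter (adjusted p 0.0544 to 0.0803). A second gene model, Gm13835, shares 665 identical bases with a Psma3 transcript and held 4535 reads against 10947 for Psma3, so the split between them depends on how such reads were counted.

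Psma5, Psma1 and Psma7 did not pass. Psma5 had 6.51, 29.4 and 45.1 CPM in the AML1/ETO libraries, against 47.2, 58.2, 68.3, 46 and 58.5 CPM in the controls, so AML1/ETO library 1 was far below the others (adjusted p = 0.117, log2 fold change −1.04 with SE 0.46). Without AML1/ETO library 3 it was called at −1.63 (adjusted p = 0.0324; alternatives reached 0.228). The gene models Gm8394 and Gm12989 are 98.6% and 97.5% identical to parts of a Psma5 transcript. They held 481 and 606 reads against 6099 for Psma5. Psma1 had 44.6, 56 and 113 CPM in the AML1/ETO libraries, against 101, 87.4, 139.7, 96 and 106 CPM in the controls, with AML1/ETO library 3 inside the control range (adjusted p = 0.162, log2 fold change −0.58 with SE 0.29), and was called at −1.08 without that library (adjusted p = 0.00741; alternatives reached 0.403). Psma7 had a log2 fold change of −0.50 with SE 0.20 and adjusted p = 0.0901, and was called at −0.58 without control library 1 (adjusted p = 0.0297; alternatives gave 0.0240 to 0.367).

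Of the 7 constitutive beta ring genes 6 fell. Psmb5 (ENSMUSG00000022193, chromosome 14, 54614119 to 54618022) encodes the subunit with the chymotrypsin-like activity, the main target of bortezomib. It stood at 12.6, 23.4 and 34.1 CPM in the AML1/ETO libraries, against 47.5, 52, 59.1, 53.2 and 60.6 CPM in the controls, with no overlap between groups. Its fall of 2.33-fold was the largest in the ring (adjusted p = 0.0106, log2 fold change −1.22 with SE 0.30), and the call held without each library in turn. A second gene model, Gm3375, is 98.9% identical to a Psmb5 transcript over 796 bases. It held 430 reads against 5806 for Psmb5, and how reads shared by them were counted is not stated. Psmb6 (ENSMUSG00000018286, chromosome 11, 70525367 to 70527858), which carries the caspase-like activity, had 97.2, 73.7 and 81.4 CPM in the AML1/ETO libraries, against 117, 126, 139, 131 and 125 CPM in the controls. Here too the groups were apart and the gene fell 1.51-fold (adjusted p = 0.0154, log2 fold change −0.60 with SE 0.16), although not without AML1/ETO library 2 (adjusted p = 0.0554; alternatives gave 0.00343 to 0.111). Psmb7 (ENSMUSG00000026750, chromosome 2, 38588036 to 38644087), which carries the trypsin-like activity, had 27.1, 49.3 and 49.2 CPM in the AML1/ETO libraries, against 38.9, 61.8, 70.3, 68.6 and 89.2 CPM in the controls. AML1/ETO libraries 2 and 3 were above control 1, and the gene did not pass (adjusted p = 0.122, log2 fold change −0.65 with SE 0.29). Psmb7 shares 405 exonic bases with Nek6 on the other strand, a gene with 26323 reads that was higher in AML1/ETO cells (log2 fold change 0.84, SE 0.27, adjusted p = 0.0397), and the strand setting of the counting is not given.

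The non-catalytic beta subunits shape the ring. Psmb3 stood at 43.3, 47.1 and 48.7 CPM in the AML1/ETO libraries, against 96, 85.2, 100.1, 78.4 and 92.8 CPM in the controls (adjusted p = 0.00155, log2 fold change −0.96 with SE 0.17). Psmb1 stood at 91.5, 102 and 97.5 CPM in the AML1/ETO libraries, against 151, 161, 161, 124 and 134 CPM in the controls (adjusted p = 0.0153, log2 fold change −0.59 with SE 0.16). Psmb2 stood at 29.5, 44.2 and 41 CPM in the AML1/ETO libraries, against 49.9, 64.2, 71.3, 60.8 and 71.4 CPM in the controls (adjusted p = 0.0266, log2 fold change −0.73 with SE 0.21). The groups were apart in these 3 genes, as in Psmb4, which had 94.6, 95.3 and 144 CPM in the AML1/ETO libraries, against 188, 181, 205, 167 and 164 CPM in the controls (adjusted p = 0.0143, log2 fold change −0.70 with SE 0.18). The Psmb1 call was lost without control 2 (adjusted p = 0.0547; alternatives gave 0.00484 to 0.0547), and that of Psmb4 without AML1/ETO library 2 (0.0517; alternatives gave 0.00349 to 0.0536). Leaving out AML1/ETO library 1 or any of controls 2 to 5 lost the Psmb2 call (adjusted p 0.0564 to 0.0728 without these; alternatives gave 0.0132 to 0.114).

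None of the 3 immunoproteasome genes passed. Psmb8 (ENSMUSG00000024338, chromosome 17, 34197721 to 34201454), which takes the place of Psmb5, had 99.5, 159 and 146 CPM in the AML1/ETO libraries, against 147, 131, 183, 141 and 172 CPM in the controls. Psmb9 (ENSMUSG00000096727, chromosome 17, 34181987 to 34187764), the counterpart of Psmb6, had 47.5, 76.2 and 64.3 CPM in the AML1/ETO libraries, against 60.6, 62.6, 90.0, 75.3 and 101 CPM in the controls. Psmb10 (ENSMUSG00000031897, chromosome 8, 105935735 to 105938444), the counterpart of Psmb7, had 42.8, 72.2 and 78.3 CPM in the AML1/ETO libraries, against 66, 63.1, 111, 75 and 82 CPM in the controls. In all 3 genes AML1/ETO library 1 was the lowest of the 8 libraries, while libraries 2 and 3 lay within the control range. The log2 fold changes were −0.20 for Psmb8 (SE 0.19, adjusted p = 0.501), −0.31 for Psmb9 (SE 0.23, adjusted p = 0.366) and −0.30 for Psmb10 (SE 0.25, adjusted p = 0.436). A p that misses the threshold does not show equal levels. Psmb9 overlaps Tap1 by 212 exonic bases on the other strand, and Tap1 held 29786 reads against 9631 for Psmb9.

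**Figure D3:**
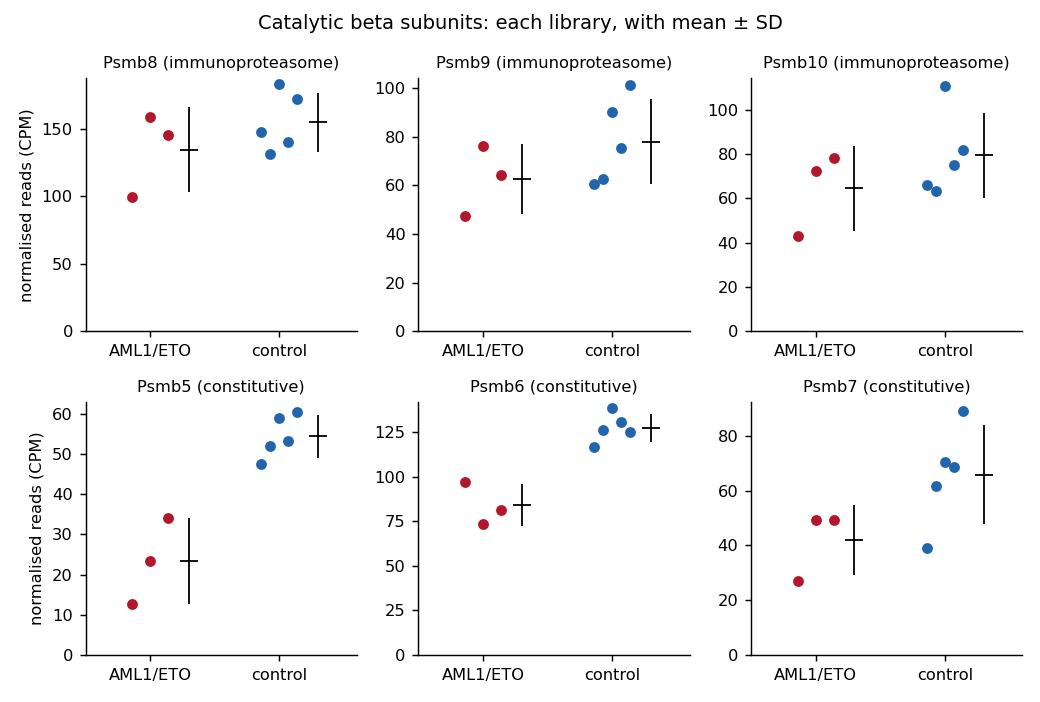
Normalised reads (CPM, y axis from 0) of the immunoproteasome subunits (top) and the constitutive subunits they replace (bottom), with a point per library and the mean ± SD beside it. The groups overlap in Psmb8, Psmb9, Psmb10 and Psmb7 and are apart in Psmb5 and Psmb6.

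Whether the immunoproteasome genes differed from their counterparts was tested within libraries, since a ratio of 2 genes in 1 library does not depend on library scaling. Each ratio is of reads per kilobase of annotated exon. Psmb8 over Psmb5 was 2.09, 1.81 and 1.14 in the AML1/ETO libraries, against 0.824, 0.671, 0.825, 0.703 and 0.757 in the controls. Every AML1/ETO library was above every control. The log2 ratio averaged 0.70 ± 0.46 in the AML1/ETO libraries (SD, n = 3) and −0.41 ± 0.13 in the controls (SD, n = 5). The difference of 1.11, or 2.16-fold, had p = 0.0179 by a two-sided exact permutation test, the smallest that 56 arrangements allow, and 0.0536 when adjusted over the 3 ratios. Psmb9 over Psmb6 was 0.2502, 0.529 and 0.404 in the AML1/ETO libraries, against 0.265, 0.254, 0.332, 0.295 and 0.415 in the controls. The groups overlapped, with AML1/ETO library 1 at the bottom of all 8 and library 2 at the top (log2 difference 0.29, exact permutation p = 0.357, adjusted 0.357). Without AML1/ETO library 1 the difference was 0.59 (exact permutation p = 0.0952), and without library 2 it was 0.05 (exact permutation p = 0.952), the extremes over the alternatives. Psmb10 over Psmb7 was 3.17, 2.94 and 3.19 in the AML1/ETO libraries, against 3.40, 2.05, 3.16, 2.19 and 1.84 in the controls (log2 difference 0.34, exact permutation p = 0.25, adjusted 0.357). Controls 1 and 3, at 3.40 and 3.16, were no lower than AML1/ETO library 2. Of the reads per kilobase of all 6 catalytic genes, the immunoproteasome genes made up 47.7%, 58.0% and 52.7% in the AML1/ETO libraries, against 43.8%, 39.3%, 47.3%, 41.6% and 44.2% in the controls. Each AML1/ETO library was above each control in this share, but library 1 at 47.7% was barely above control 3 at 47.3%. Unlike the difference in a single log2 ratio, the share depends on the annotated exon lengths, so this order may not hold on another scale. The share was not tested on its own.

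**Figure D4:**
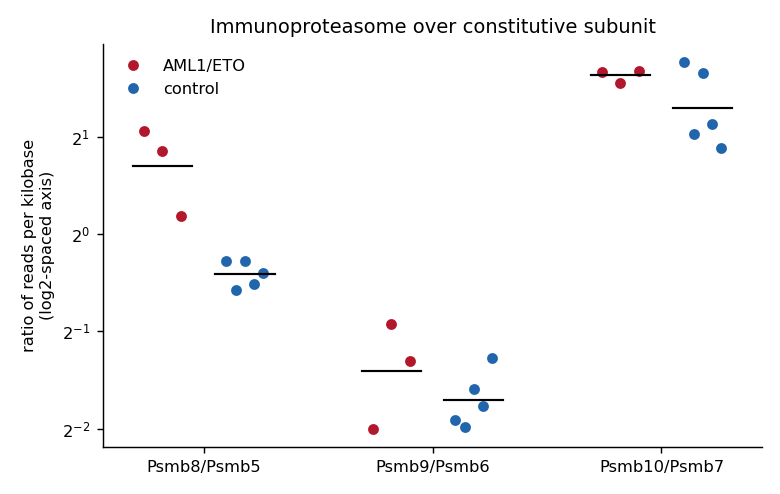
Ratio of reads per kilobase of each immunoproteasome gene over its constitutive counterpart (y axis, log2-spaced), with a point per library and a bar at the mean of the log2 ratio. Only Psmb8/Psmb5 separates the groups, at 1.14 to 2.09 for AML1/ETO and 0.671 to 0.825 for control.

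The 120 bases just before the start of Psmb8, Psmb5, Psmb9 and Psmb6 are shown, read toward the gene. They come from RefSeq on GRCm38.p6. Each gene shown holds a match, so they are not a sample of the members. Psmb10 and Psmb7 were also compared directly and are not shown. The Psmb10 window held none of the motifs searched, and Psmb7 had no window. RefSeq's starts of Psmb8 and Psmb9 lie inside the longer annotated genes given above, so these windows fall within the genes' annotated extent. Capitals mark a TTCNNNGAA match (the gamma-activated site of interferon signalling) in Psmb8, at chr17:34198075-34198194 on the plus strand, and a TGACNNNGC match (the antioxidant response element that NRF1 and NRF2 bind) in Psmb5, at chr14:54617996-54618115 on the minus strand. In Psmb9, at chr17:34187331-34187450 on the minus strand, they mark a CCAAT box on the reverse strand, and in Psmb6, at chr11:70525237-70525356 on the plus strand, again TGACNNNGC.
Psmb8: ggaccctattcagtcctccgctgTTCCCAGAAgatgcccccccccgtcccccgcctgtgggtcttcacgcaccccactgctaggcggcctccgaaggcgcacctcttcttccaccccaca
Psmb5: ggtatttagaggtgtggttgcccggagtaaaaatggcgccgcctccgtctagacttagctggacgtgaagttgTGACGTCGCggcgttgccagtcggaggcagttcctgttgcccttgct
Psmb9: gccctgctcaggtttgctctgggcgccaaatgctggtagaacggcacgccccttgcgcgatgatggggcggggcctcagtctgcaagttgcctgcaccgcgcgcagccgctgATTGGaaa
Psmb6: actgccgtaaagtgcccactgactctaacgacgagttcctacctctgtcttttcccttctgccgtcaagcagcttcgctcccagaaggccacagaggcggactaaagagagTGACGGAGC
The match begins 97 bases before the start in Psmb8, 47 in Psmb5, 8 in Psmb9 and 9 in Psmb6.

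Both strands were searched in windows from 250 bases before to 50 after each start, and a gene with several windows counts once; 42 members had a window. TGACNNNGC was in 6 of 42 members (14.3%) and in 14% of all genes with a window, and CCAAT in 15 (35.7%) against 41.1%. The core of the interferon-stimulated response element was in 5 (11.9%) against 3.99%, those being Psmb3, Psmd4, Psmd9, Psme1 and Psmg4, and TTCNNNGAA in 3 (7.14%) against 9.55%. Of the 21 members with a window that fell, 4 held TGACNNNGC, which were Psmb5, Psmb6, Psmd12 and Psme4; of 20 that did not pass, 2 did, Psmc6 and Psmd9. None of the 3 immunoproteasome windows held TGACNNNGC or the interferon-stimulated core. A match describes letters in a window and not a bound site, and matches of different motifs may overlap.

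In the base of the regulatory particle, 5 of 6 ATPase genes fell. They form the ring that unfolds substrates and opens the core. Psmc2 (ENSMUSG00000028932, chromosome 5, 21785283 to 21803787) had 34.2, 53 and 42.8 CPM in the AML1/ETO libraries, against 100.3, 97.4, 111, 95 and 106 CPM in the controls. Psmc3 had 89.2, 58.5 and 98.8 CPM in the AML1/ETO libraries, against 161, 175, 181, 144 and 156 CPM in the controls. Psmc4 had 51.4, 66.4 and 49.8 CPM in the AML1/ETO libraries, against 120.2, 118, 114, 97.7 and 97.6 CPM in the controls. In each, the highest AML1/ETO library was well under the lowest control, and the falls were 2.35-fold for Psmc2 (adjusted p = 0.00061, log2 fold change −1.23 with SE 0.19), 1.99-fold for Psmc3 (adjusted p = 0.00282, log2 fold change −0.99 with SE 0.19) and 1.96-fold for Psmc4 (adjusted p = 0.0019, log2 fold change −0.97 with SE 0.18). Psmc1 stood at 56.1, 83 and 82.5 CPM in the AML1/ETO libraries, against 131, 127, 174, 139.7 and 126 CPM in the controls (adjusted p = 0.00451, log2 fold change −0.92 with SE 0.19). Psmc5 stood at 32, 57.3 and 63.8 CPM in the AML1/ETO libraries, against 93, 89.6, 95.9, 84.5 and 102 CPM in the controls (adjusted p = 0.0148, log2 fold change −0.87 with SE 0.23). Psmc6 was the exception, at 84.8, 86.8 and 84.2 CPM in the AML1/ETO libraries, against 100.3, 109, 115, 110.3 and 111 CPM in the controls: the groups were apart, but the log2 fold change of −0.36 (SE 0.14) did not pass (adjusted p = 0.0916). The 5 ATPase calls held without each library in turn. Psmc3 shares 215 exonic bases with Slc39a13 on the other strand, which held 4900 reads against 17861 for Psmc3.

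Of the other base genes, Psmd1 and Psmd2 fell. They encode the large scaffold subunits to which ubiquitin-binding proteins dock. Psmd1 (ENSMUSG00000026229, chromosome 1, 86064387 to 86139151) had 70.1, 50.4 and 47.9 CPM in the AML1/ETO libraries, against 102, 133, 134, 141 and 141 CPM in the controls, a 2.32-fold fall with no overlap (adjusted p = 0.000834, log2 fold change −1.21 with SE 0.19). Psmd2 had 108, 142 and 111 CPM in the AML1/ETO libraries, against 192, 190.1, 192, 175 and 186 CPM in the controls (adjusted p = 0.00911, log2 fold change −0.63 with SE 0.15), also without overlap. Both calls held without each library in turn. Psmd4, the ubiquitin receptor, had 84.7, 76.5 and 95.8 CPM in the AML1/ETO libraries, against 112, 92.7, 131, 93.4 and 97.2 CPM in the controls, and AML1/ETO library 3 lay within the control range (adjusted p = 0.254, log2 fold change −0.29 with SE 0.18).

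The lid held the steepest fall of any subunit and also the only subunit gene above its control mean. Psmd11 (ENSMUSG00000017428, chromosome 11, 80428615 to 80473248), a scaffold subunit of the lid, had 43.6, 32.2 and 33.2 CPM in the AML1/ETO libraries, against 71, 91.1, 77.5, 88.8 and 106 CPM in the controls, a 2.39-fold fall (adjusted p = 0.000933, log2 fold change −1.26 with SE 0.20). Psmd14 (ENSMUSG00000026914, chromosome 2, 61711694 to 61800376), the metalloprotease that cuts ubiquitin chains from substrates, had 30.4, 54.9 and 44.9 CPM in the AML1/ETO libraries, against 71.4, 87.1, 106, 72.8 and 92.9 CPM in the controls, a 1.98-fold fall (adjusted p = 0.00871, log2 fold change −0.99 with SE 0.23). Psmd7, which pairs with Psmd14 in the lid and has no protease activity of its own, had 32.1, 35.2 and 61.9 CPM in the AML1/ETO libraries, against 76.9, 67.7, 103, 80.4 and 81.8 CPM in the controls (adjusted p = 0.0172, log2 fold change −0.93 with SE 0.25). Groups were apart in all 3. The calls of Psmd11 and Psmd14 held without each library in turn, while leaving out AML1/ETO library 2 or control 3 lost that of Psmd7 (adjusted p = 0.0585 and 0.0514; alternatives gave 0.00249 to 0.0592). Psmd6 stood at 57.3, 67.8 and 44.8 CPM in the AML1/ETO libraries, against 114, 119.7, 113, 95.7 and 107 CPM in the controls (adjusted p = 0.00254, log2 fold change −0.96 with SE 0.18). Psmd12 stood at 41, 37 and 45.8 CPM in the AML1/ETO libraries, against 68.5, 77.1, 80.4, 69.6 and 60.8 CPM in the controls (adjusted p = 0.00853, log2 fold change −0.79 with SE 0.18). These groups were apart as well, and both calls held without each library.

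Psmd8 (ENSMUSG00000030591, chromosome 7, 29174188 to 29180701), a lid subunit, was the most abundant member by CPM and the only lid gene with a higher mean in AML1/ETO cells. It had 287, 204 and 240.0 CPM in the AML1/ETO libraries, against 192, 219, 225, 213 and 187 CPM in the controls. AML1/ETO libraries 1 and 3 were above all controls and library 2 was within their range, and the log2 fold change of 0.24 did not pass (SE 0.15, adjusted p = 0.296). Psmd3 had a log2 fold change of −0.50 with SE 0.19 and adjusted p = 0.0707 and Psmd13 one of −0.55 (SE 0.22, adjusted p = 0.0931). Both were called without AML1/ETO library 3, at −0.66 for Psmd3 (adjusted p = 0.0426; alternatives gave 0.0192 to 0.224) and −0.83 for Psmd13 (0.0222; alternatives reached 0.233). Psmd13 shares 342 exonic bases with Sirt3 on the other strand, which was higher in AML1/ETO cells (log2 fold change 0.73, SE 0.23, adjusted p = 0.0380).

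No gene of the base chaperones passed. Psmd5, Psmd9 and Psmd10 help the ATPase ring to assemble and leave the finished particle. Their log2 fold changes were −0.61 for Psmd5 (SE 0.26, adjusted p = 0.115), −0.10 for Psmd9 (SE 0.23, adjusted p = 0.816) and −0.04 for Psmd10 (SE 0.51, adjusted p = 0.972). Psmd5 was called without AML1/ETO library 2, at −0.99 (adjusted p = 0.0140; alternatives reached 0.332). Psmd10, also known as gankyrin, is the only member on chromosome X.

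Among the activators, which open the core without ubiquitin, Psme3 and Psme4 fell. Psme3 (ENSMUSG00000078652, chromosome 11, 101316213 to 101323537), the nuclear PA28-gamma, had 71.8, 94 and 82.3 CPM in the AML1/ETO libraries, against 141, 162, 152, 159 and 162 CPM in the controls, a 1.88-fold fall without overlap (adjusted p = 0.00122, log2 fold change −0.91 with SE 0.15) whose call held without each library. Psme4, the nuclear activator PA200, had 126, 74.2 and 61 CPM in the AML1/ETO libraries, against 172, 172, 105, 161 and 138 CPM in the controls. AML1/ETO library 1 was above control 3, and the fall (adjusted p = 0.0401, log2 fold change −0.78 with SE 0.25) was lost on leaving out AML1/ETO library 2 or 3, or any of controls 1, 2, 4 and 5 (adjusted p 0.0747 to 0.142; alternatives went down to 0.00256). DESeq2 size factors, upper-quartile scaling and a filter of 1 CPM in 3 libraries lost it too (adjusted p 0.0505 to 0.0637). Psmf1, the inhibitor PI31, had 28.6, 34.7 and 27.3 CPM in the AML1/ETO libraries, against 44.5, 54.4, 41, 50.4 and 47 CPM in the controls, without overlap (adjusted p = 0.0397, log2 fold change −0.65 with SE 0.21). Its call was kept without AML1/ETO library 2 and lost without each of the other 7 (adjusted p 0.0511 to 0.113; alternatives gave 0.0174 to 0.191). With all libraries kept, limma-voom, DESeq2 size factors, upper-quartile scaling and no filter also lost the call (adjusted p 0.0537 to 0.0844).

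Psme1 and Psme2 encode the interferon-inducible PA28 activator, which pairs with the immunoproteasome. Psme1 (ENSMUSG00000022216, chromosome 14, 55578123 to 55581529) had 103, 160.1 and 175 CPM in the AML1/ETO libraries, against 199, 190.0, 206, 163 and 156 CPM in the controls. AML1/ETO libraries 2 and 3 were within the control range, and the gene did not pass (adjusted p = 0.253, log2 fold change −0.32 with SE 0.19). Psme2 had 37.9, 21.7 and 16.9 CPM in the AML1/ETO libraries, against 15.9, 18.2, 32.1, 41.1 and 52.3 CPM in the controls (adjusted p = 0.646, log2 fold change −0.33 with SE 0.42). Its copy Psme2b is 99.4% identical over 794 bases and had 14.2, 27.2 and 19.9 CPM in the AML1/ETO libraries, against 28.4, 35.7, 54, 29.3 and 26.4 CPM in the controls (adjusted p = 0.105, log2 fold change −0.76 with SE 0.32). Reads of this pair may have been split or dropped in counting. Summed, the pair had 52.1, 48.9 and 36.9 CPM in the AML1/ETO libraries, against 44.3, 53.9, 86.1, 70.4 and 78.8 CPM in the controls, with overlap (log2 fold change −0.54, SE 0.25, adjusted p = 0.136).

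The core assembly chaperones were low in reads and did not pass. Psmg1 and Psmg2 form a pair that scaffolds the alpha ring, and Psmg3 and Psmg4 form another. Psmg2 had 28.7, 26.6 and 37.1 CPM in the AML1/ETO libraries, against 15.7, 18.2, 24.5, 19.8 and 24.5 CPM in the controls. It was the only member with every AML1/ETO library above every control, at a log2 fold change of 0.58 with SE 0.27 and adjusted p = 0.132. Its partner Psmg1 had 12.9, 14.2 and 0.0654 CPM in the AML1/ETO libraries, against 19.6, 16.4, 19, 19.1 and 16.6 CPM in the controls. AML1/ETO library 3 held 1 read of Psmg1 where the other AML1/ETO libraries held 171 and 228, and the log2 fold change of −0.998 had an SE of 0.88 (adjusted p = 0.464). Among genes with 20 to 50 reads expected by the rest of the group, 41.4% to 51.1% had no read in an AML1/ETO library and 10.5% to 46.2% had none in a control, so single low values carry more than counting error. The rest of the group is fewer libraries for AML1/ETO than for control, so these ranges are not alike measures of the groups. Psmg3 had 5.15, 4.06 and 11.3 CPM in the AML1/ETO libraries, against 6.02, 6.39, 14.3, 3.26 and 8.95 CPM in the controls (adjusted p = 0.881, log2 fold change −0.19 with SE 0.64). Psmg4 had 19.5, 5.12 and 17.7 CPM in the AML1/ETO libraries, against 10.6, 19.7, 30.1, 23.2 and 24.6 CPM in the controls (adjusted p = 0.384, log2 fold change −0.62 with SE 0.47). The groups overlapped in both.

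Psma8 and Psmb11, the alpha subunit of the testis and the beta subunit of thymic epithelium, were at or near 0. Psma8 had 0, 4 and 0 CPM in the AML1/ETO libraries, against 1.99, 4.93, 3.68, 3.55 and 0 CPM in the controls (adjusted p = 0.758), and Psmb11 had no read in any library. Psmc3ip, the meiotic recombination factor, had 2.27, 0.687 and 3.27 CPM in the AML1/ETO libraries, against 1.87, 10.4, 8.96, 10.8 and 9.58 CPM in the controls. Control 1 was as low as the AML1/ETO libraries, and the log2 fold change of −2.002 (SE 0.82) did not pass (adjusted p = 0.095). Without control 1 it did, at −2.22 (adjusted p = 0.0380; alternatives reached 0.477). It shares 385 exonic bases with Mlx on the other strand.

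Per kilobase of exon, levels spread widely within the complex although the subunits are present in equal copy in the particle. Over the 14 constitutive core genes the group means ran from 12.2 to 57.0 CPM per kilobase in the AML1/ETO libraries and from 19.2 to 92.7 in the controls, with medians of 25.0 and 40.8. Psmb4 was at the top and Psmb7 at the bottom in each group. Over the 17 regulatory particle genes they ran from 5.70 to 79.7 CPM per kilobase in the AML1/ETO libraries and from 13.6 to 72.2 in the controls, with Psmd11 lowest in each; Psmd8 was highest in the AML1/ETO libraries and Psmc1 in the controls. Psmb8 stood at 39.9 CPM per kilobase in the AML1/ETO libraries and 45.8 in the controls, and Psmb5 at 26 CPM per kilobase in the AML1/ETO libraries and 60.6 in the controls. Lengths are of all annotated exons of a gene together, so a gene with long minor transcripts reads low on this scale.

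Genes that work with the proteasome but fall outside the name rule were taken from lists, whose counts are read against the 11.6% of all tested genes that rose and 14.2% that fell, or 18.6% and 20.3% of genes at 20 CPM or more. Of 17 tested partners 3 rose and 4 fell, shares near those of abundant genes (median log2 fold change −0.32, against −0.09 over all tested genes). Midn, midnolin, which carries nuclear proteins such as immediate early factors to the proteasome without ubiquitin, had 420.0, 287 and 438 CPM in the AML1/ETO libraries, against 129.5, 117, 135, 108 and 119 CPM in the controls, a 3.13-fold rise without overlap (adjusted p = 3.18e-05, log2 fold change 1.65 with SE 0.16). Zfand5, which binds the proteasome and speeds degradation, rose 1.62-fold (adjusted p = 0.0109, log2 fold change 0.70 with SE 0.17). Its call held without each library. Ube3c, a ubiquitin ligase on the proteasome, rose as well (adjusted p = 0.0134, log2 fold change 0.96 with SE 0.25), with AML1/ETO library 1 at 40.96 CPM and the highest control at 39.4 CPM. The shuttle factors Rad23b and Ubqln2, which bring tagged proteins to the particle, fell 1.82-fold (adjusted p = 0.00147, log2 fold change −0.86 with SE 0.15) and 1.92-fold (adjusted p = 0.00761, log2 fold change −0.94 with SE 0.22). The small lid subunit Sem1 had 56.3, 27.9 and 40.0 CPM in the AML1/ETO libraries, against 90.4, 70.5, 93.4, 66.1 and 70.6 CPM in the controls (adjusted p = 0.0173, log2 fold change −0.92 with SE 0.25). Txnl1, a thioredoxin bound to the regulatory particle, fell too (adjusted p = 0.0215, log2 fold change −0.94 with SE 0.26). Its groups overlapped, with AML1/ETO library 2 at 87.4 CPM and control 1 at 82.2 CPM. The calls of Ube3c, Sem1 and Txnl1 were not examined under the alternatives. Pomp, which drives the maturation of the core, had a log2 fold change of −0.63 with SE 0.27 and adjusted p = 0.109.

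The factors that control proteasome genes were examined next. NRF1, the product of Nfe2l1, induces them in many mammalian cells after the protease DDI2 has cut it loose from the membrane. Of 10 genes of this list 3 fell and 1 rose, with a median log2 fold change of −0.19. Over all tested genes 14.2% fell and 11.6% rose, or 20.3% and 18.6% at 20 CPM or more. Ddi2 had 63.9, 77.7 and 58.7 CPM in the AML1/ETO libraries, against 149.8, 168, 126, 146 and 132 CPM in the controls, a 2.16-fold fall without overlap (adjusted p = 0.00066, log2 fold change −1.11 with SE 0.17). Nfe2l1 had 109.6, 126 and 88.2 CPM in the AML1/ETO libraries, against 154, 192, 156, 162 and 166 CPM in the controls, also without overlap (adjusted p = 0.0163, log2 fold change −0.62 with SE 0.17), but leaving out AML1/ETO library 3 or control 2 lost the call (adjusted p = 0.0681 and 0.0556; alternatives gave 0.00477 to 0.0686). Nfe2l2, which encodes the related NRF2, had 114, 71.4 and 87.6 CPM in the AML1/ETO libraries, against 137, 135, 182, 135 and 116 CPM in the controls (adjusted p = 0.0383, log2 fold change −0.63 with SE 0.20), and leaving out AML1/ETO library 2 or 3, or any of controls 1 to 4, lost the call (adjusted p 0.0707 to 0.128; alternatives went down to 0.00981). DESeq2 size factors, upper-quartile scaling and both other filters lost it too (adjusted p 0.0505 to 0.0655). Maff, a small MAF protein of the kind that pairs with NRF1 and NRF2, rose 6.26-fold, at 258 ± 24.3 CPM in the AML1/ETO libraries (SD, n = 3) and 41.1 ± 15.8 CPM in the controls (SD, n = 5) (adjusted p = 5.23e-05, log2 fold change 2.65 with SE 0.28). Among activating enzymes, Uba7, which acts on the ubiquitin-like ISG15, rose 3.47-fold (adjusted p = 6.06e-06, log2 fold change 1.80 with SE 0.14). Uba1, the main ubiquitin-activating enzyme and X-linked, fell 1.62-fold (adjusted p = 0.00672, log2 fold change −0.69 with SE 0.16).

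**Figure D5:**
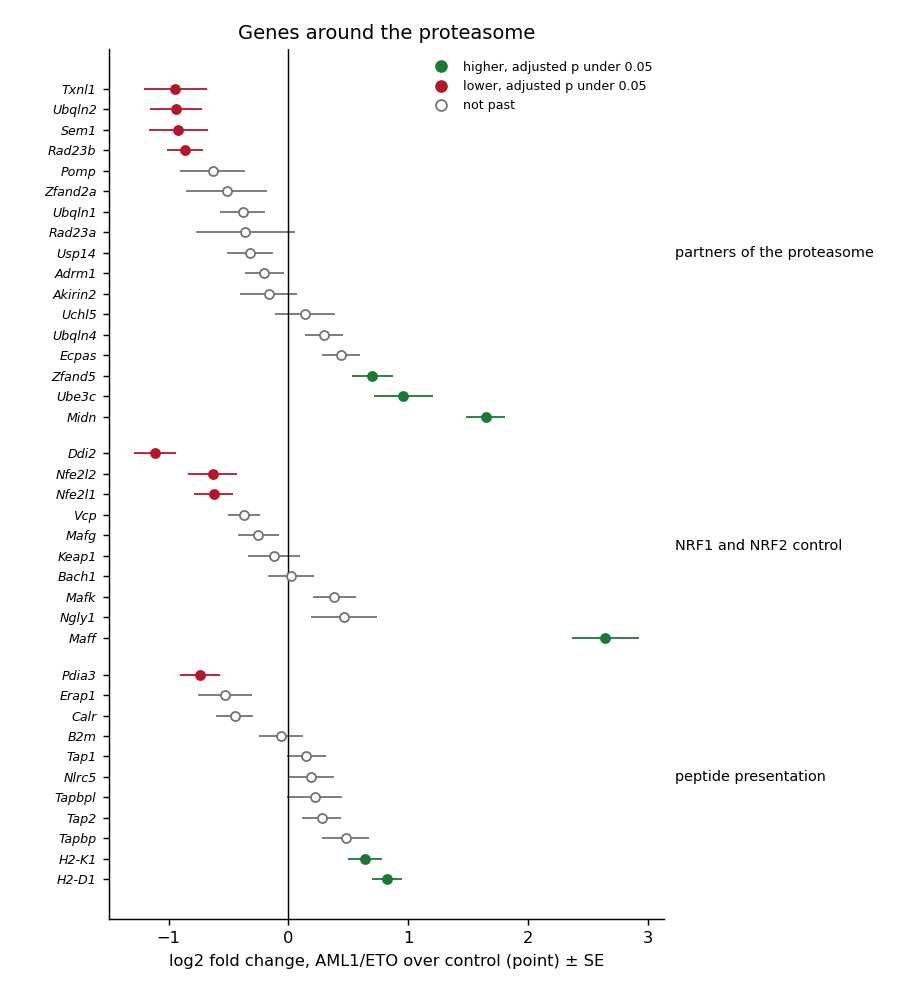
Log2 fold change (x axis, AML1/ETO over control, point ± SE) of the partners, the NRF1 and NRF2 genes and the peptide presentation genes, the 3 lists shown. Green points rose and red points fell past the adjusted threshold; of the genes of these lists past it, Maff at 2.65 and Midn at 1.65 lie farthest right and Ddi2 at −1.11 farthest left.

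Interferon control and peptide presentation genes give the setting of the immunoproteasome. Of 11 presentation genes 2 rose and 1 fell, beside 11.6% and 14.2% of all tested genes and 18.6% and 20.3% of those at 20 CPM or more. Their median log2 fold change was 0.19. H2-D1 and H2-K1, the MHC class I heavy chains, had 2919 ± 420.4 CPM in the AML1/ETO libraries (SD, n = 3) and 1651 ± 117 CPM in the controls (SD, n = 5) for H2-D1 (adjusted p = 0.00066, log2 fold change 0.82 with SE 0.13) and 4030 ± 863 CPM in the AML1/ETO libraries (SD, n = 3) and 2588 ± 142 CPM in the controls (SD, n = 5) for H2-K1 (adjusted p = 0.00598, log2 fold change 0.64 with SE 0.14). These genes are near-identical in parts, and their reads may have been shared. Tap1 and Tap2, the peptide transporters encoded beside Psmb8 and Psmb9, did not pass, at 242 CPM in the AML1/ETO libraries and 218 CPM in the controls for Tap1 (adjusted p = 0.566) and 246 CPM in the AML1/ETO libraries and 203 CPM in the controls for Tap2 (adjusted p = 0.247). Pdia3, a chaperone of peptide loading, fell (adjusted p = 0.00712, log2 fold change −0.73 with SE 0.17), and Calr, another, did not pass (adjusted p = 0.0543, log2 fold change −0.45 with SE 0.16). It was called lower by DESeq2 and with library totals alone (adjusted p = 0.0396 and 0.0148; alternatives reached 0.149). Of 14 tested interferon control genes 3 rose and 1 fell, with a median log2 fold change of −0.10. Over all tested genes 11.6% rose and 14.2% fell, or 18.6% and 20.3% at 20 CPM or more. Isg15, Ifit1, Oas1a, Mx1, Usp18 and Irf7 averaged less than that. Irf1, which drives immunoproteasome genes after interferon, had 276, 439 and 342 CPM in the AML1/ETO libraries, against 130.5, 125, 163, 105 and 132 CPM in the controls, without overlap (adjusted p = 0.000203, log2 fold change 1.43 with SE 0.18). Stat2 rose 3.64-fold (adjusted p = 0.00128, log2 fold change 1.86 with SE 0.32). Irf7 rose (adjusted p = 0.0481, log2 fold change 1.22 with SE 0.41), but not without AML1/ETO library 2 or 3 or control 2, 4 or 5 (adjusted p 0.0827 to 0.181; alternatives gave 0.00803 to 0.325). Nor was it called with library totals alone or no filter (adjusted p = 0.0772 and 0.0527). Ifnar1, an interferon receptor chain, fell (adjusted p = 0.0372, log2 fold change −0.60 with SE 0.19), a call that held without AML1/ETO library 3 or control 1 and was lost without each of the other 6 libraries (adjusted p 0.0570 to 0.120; alternatives gave 0.0116 to 0.176). It was also lost with DESeq2 size factors, upper-quartile scaling and no filter (adjusted p = 0.0600, 0.0561 and 0.0506). Ifit3 had no read in any library.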

How the data were processed

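The deposited values are raw read counts per Ensembl gene in 8 libraries, a column each. Per the submitters' processing notes, featureCounts 1.5.0-p3 and HISAT2 2.0.5 were used, on build mm10. Which annotation they took, whether strand was used and how multiply aligned reads were treated is not stated there. The test was that of edgeR 4.0.16 (R 4.3.3): filterByExpr left 15009 genes, libraries were scaled by TMM, and the quasi-likelihood test set 3 AML1/ETO libraries against 5 controls with no covariate, two-sided, adjusted by Benjamini-Hochberg over all tested genes, threshold 0.05. CPM use TMM-scaled totals, and SE come from the F statistic. Coordinates and exon lengths are from GENCODE M21 on GRCm38. Ratios were tested by exact permutation of libraries. Copies were sought by alignment of transcripts at 95% identity or more over 100 bases or more. Beyond those described above, Psma4, Psmb3, Psmc1, Psmd2 and Psmd11 were among the members with copies. Alternatives were DESeq2 1.42.0, limma-voom (limma 3.58.1), other scalings and filters, libraries left out and a replicate block. The edgeR procedure was run on counts simulated with each gene's fitted spread, with no excess of zeros added. The permutation procedure was run on made-up values that separate the groups. Neither run measures error rates in the present data. Values in every library are given for the catalytic, activator, inhibitor and assembly genes and for each member past the threshold, and up to 4 genes per further list were taken by smallest p; Sem1, Txnl1, Ube3c, Pomp, Tap1, Tap2, Psma1, Psma5, Psmc6, Psmd4, Psmd8, Psma8 and Psmc3ip were added after their values were seen. Members and lists were chosen with earlier results of these data known. Of the listed names, Paaf1 and older names of Sem1 and Ecpas matched no row. Groups were taken from the titles; the labels give no batch. Some results of the ubiquitin list are not reported here.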

Additional observations from a re-analysis of the deposited data

Results flagged for a closer look

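Among the 5 controls, 2 of the members had a library far from the others; with 50 members and 3 ratios looked at, chance flags about 1 in 20 groups. Psmd1 stood at 101.8 CPM in control 1, where the other controls ran from 133 to 141 CPM. Psmc3ip stood at 1.87 CPM in control 1, where the other controls ran from 8.96 to 10.8 CPM. Psmd1 was called lower also without control 1, and Psmc3ip was called only without it or with DESeq2.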

How the results depend on the processing

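The number of members called lower was 25, between 22 and 29 under DESeq2, limma-voom, other scalings and other filters, 23 without both first libraries, and between 20 and 25 when a library was left out; 0 members were called higher in each of these. Library totals alone gave 29 and shifted the median of all genes to −0.24, against −0.03 with DESeq2 size factors, which gave 22. Of the 25 calls 16 held under every alternative other than the replicate block, and 8 further members were called under at least 1 alternative. Of the 49 tested members 44 were below 0 in all 17 alternatives. Over all genes the split of higher and lower calls was 1734 and 2128; it was 1407 and 2712 with library totals alone, 1879 and 1889 with DESeq2 size factors, and 951 and 1098 with the replicate number as a block. With that block 15 members were called lower, all of them among the 25. The numbers do not pair the libraries: same-numbered libraries deviated together with correlations of 0.03, −0.04 and 0.03, and of the AML1/ETO libraries only library 3 correlated best with its own number. The Psmb8/Psmb5 difference of 1.11 ran from 0.93 to 1.37 with 1 library fewer; its unadjusted exact permutation p was then 0.0476 or 0.0286, each the smallest that its 21 or 35 arrangements allow, so these p-values say nothing of stability. Without both first libraries it was 0.96 (exact permutation p = 0.0667, the smallest with 15 arrangements). The other 2 ratios ran from 0.05 to 0.59 for Psmb9/Psmb6 and from 0.23 to 0.45 for Psmb10/Psmb7 when a library was left out. Depth limits Psma8, Psmg3 and Psmc3ip most, which averaged under 10 CPM in each group.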
